A study of Mus musculus with 3 samples.

Results

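The tumour necrosis factor system was followed through the leukocytes of mouse blood with 7 of the 31053 genes in the count tables, chosen by symbol: the cytokine Tnf (ENSMUSG00000024401), its receptors Tnfrsf1a (ENSMUSG00000030341) and Tnfrsf1b (ENSMUSG00000028599), the related ligand Ltb (ENSMUSG00000024399), the receptor adaptor Traf1 (ENSMUSG00000026875), the TNF-induced gene Tnfaip2 (ENSMUSG00000021281) and the sheddase Adam17 (ENSMUSG00000052593). Blood cells of C57BL/6J mice had been profiled in 3 droplet libraries of single-cell RNA, each labelled as a 12 h time point. The Sham library carries no label of any agent, the CLP library is labelled as CMC-treated with CLP, and the HDCA+CLP library as HDCA-treated with CLP. CLP is the usual short form of caecal ligation and puncture, in which the gut is opened to let bacteria into the abdomen, HDCA that of the bile acid hyodeoxycholic acid, and CMC that of carboxymethylcellulose, a common drug vehicle, although the labels spell out none of them. Since Sham is not labelled with CMC, the CLP procedure and CMC cannot be told apart between the CLP and Sham libraries. Each group was 1 library from a number of animals not given in the sources used here, so there were no replicates and no test between groups could be made. All intervals below are 95% intervals for counting error only, and UMIs (unique molecular identifiers, 1 per captured transcript) do not make cells into replicates.

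TNF is made as a membrane protein that the protease ADAM17 cuts from the cell surface. It acts through TNFR1, the product of Tnfrsf1a, which can switch a cell between NF-kappaB survival signalling and cell death, and through TNFR2, the product of Tnfrsf1b, which is largely limited to leukocytes and endothelium and signals without a death domain. TRAF1 joins the TNFR2 complex and is itself an NF-kappaB target, Tnfaip2 is induced by TNF in endothelium and myeloid cells, and lymphotoxin beta, the product of Ltb, forms a membrane heterotrimer with lymphotoxin alpha that lymphocytes use to organise lymphoid tissue. In blood, activated monocytes and neutrophils are known sources of TNF, and both shed their TNF receptors from the surface when activated.

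Tnf and Ltb are neighbours on mouse chromosome 17, with their start sites 7500 bases apart and in opposite orientation. They are shown here because over all neutrophils Tnf was higher and Ltb lower in CLP than in Sham. The 250 bases before each start are given from RefSeq (build GRCm38.p6), 5′ to 3′ on the strand of the gene, with 2 motifs in capitals: the TATA box form TATAAA and an NF-kappaB site form, written GGG, any 2 bases and TTTCC, each searched on both strands and without overlap between them. The window of Tnf is chr17:35202008-35202257 on the minus strand and that of Ltb chr17:35194257-35194506 on the plus strand.
Tnf: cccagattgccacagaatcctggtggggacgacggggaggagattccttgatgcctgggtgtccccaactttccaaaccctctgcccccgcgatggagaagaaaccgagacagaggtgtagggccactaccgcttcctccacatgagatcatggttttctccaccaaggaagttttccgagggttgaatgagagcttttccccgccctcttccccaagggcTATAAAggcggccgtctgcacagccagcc
Ltb: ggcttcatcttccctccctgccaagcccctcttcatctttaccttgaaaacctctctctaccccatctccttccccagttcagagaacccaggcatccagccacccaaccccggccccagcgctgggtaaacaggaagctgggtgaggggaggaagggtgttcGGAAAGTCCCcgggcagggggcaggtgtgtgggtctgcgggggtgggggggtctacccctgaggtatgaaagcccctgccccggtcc
The Tnf window held TATAAA, 29 to 24 bases before the start, and no match to the NF-kappaB form. The Ltb window held GGGACTTTCC, read on the other strand 87 to 78 bases before the start, and no TATAAA. Among 32851 windows of the same length in that table, 12.4% held TATAAA and 1.41% held the NF-kappaB form. All 7 genes were in the table, and each motif occurred in 1 of the 7 windows. A match is a string of letters and does not show that a factor was bound.

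Filters left 6496 cells of Sham (median 5228 UMIs), 9853 of CLP (6509) and 10849 of HDCA+CLP (7118). Cells were assigned in order to the neutrophil gate (at least 5% of UMIs from S100a8 and S100a9), the B gate (at least 3 UMIs of Cd79a, Cd79b and Ms4a1), the T gate (at least 2 of Cd3d, Cd3e, Cd3g and Trac), the NK gate (at least 2 of Ncr1, Klrb1c and Klra8) and the monocyte gate (at least 3 of Csf1r, Ms4a6c and F13a1). Of 10 markers per lineage outside the gates, 8 to 10 were highest in their own lineage in every library, so the lineage names matched their markers. In the order Sham, CLP, HDCA+CLP, there were 234, 4520 and 8239 neutrophils, 2653, 286 and 277 B cells, 2996, 3052 and 1382 T cells, 265, 976 and 495 NK cells and 272, 692 and 280 monocytes, and 76, 327 and 176 cells met no gate. The labels call the cells mononuclear, yet neutrophils were 3.60%, 45.87% and 75.94% of them. Libraries shared 17 to 34 cell barcodes in each pair. Levels are given as CPM, the UMIs of a gene per 1000000 UMIs of all cells of a lineage in a library, and are not corrected for gene length, as 3′ counting takes 1 tag per transcript. A gene was called higher or lower when its CPM differed at least 2-fold, with at least 20 UMIs over both libraries.

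Over the 5 lineages, 11 combinations of TNF system gene and lineage were at least 2-fold higher in CLP blood against Sham blood. Another 5 were lower, near the share over all genes, and hardly any combination differed 2-fold between HDCA+CLP and CLP. Of 35 combinations of gene and lineage, 32 had enough UMIs in CLP and Sham. Of these, 11 were higher in CLP, against a background of 9.88% of all gene and lineage combinations. The 7 genes were chosen with earlier results of these data known, so the counts in this paragraph are a description only. The 5 that were lower were a share near their background of 14.7%. The higher ones were Tnf and Traf1 in neutrophils and in monocytes, Tnf, Tnfrsf1b and Tnfaip2 in T cells, and Traf1, Tnfaip2 and both receptors in B cells. The lower ones were Ltb in neutrophils, B cells and monocytes, and Tnfrsf1a and Tnfaip2 in neutrophils. With a minimum of 100 UMIs, 7 were higher and 5 lower, and no share over all genes is given for that minimum. In CLP B cells, 21 of 22 Tnfrsf1a UMIs, 61 of 74 Tnfrsf1b UMIs and 15 of 17 Tnfaip2 UMIs lay in cells that also met the monocyte gate. Without doublet removal the Traf1 ratios of neutrophils and B cells fell under 2-fold, to 0.94 and 0.97. Between HDCA+CLP and CLP, 0 of 32 were higher (background 2.19%) and 3 were lower (background 2.91%), all 3 of them in B cells, where 7.04% of all genes were lower. Between HDCA+CLP and Sham, 10 of 31 were higher (background 8.42%) and 3 were lower, a share under the background of 13.7%. Those higher were Tnf and Traf1 in neutrophils and monocytes, and Tnf, Tnfrsf1b and Tnfaip2 in T cells. In B cells they were Traf1 and both receptors, and the receptor intervals included 0. There Tnfrsf1a was at 1.02 (-1.37 to 2.77), from 3 HDCA+CLP UMIs, and Tnfrsf1b at 1.11 (-0.02 to 2.08). The comparisons with Sham share that library, so they are not independent of each other. The median log2 ratio over all genes between CLP and Sham was -0.27 in neutrophils and NK cells, -0.20 in monocytes, -0.09 in B cells and -0.02 in T cells.

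**Figure D1:**
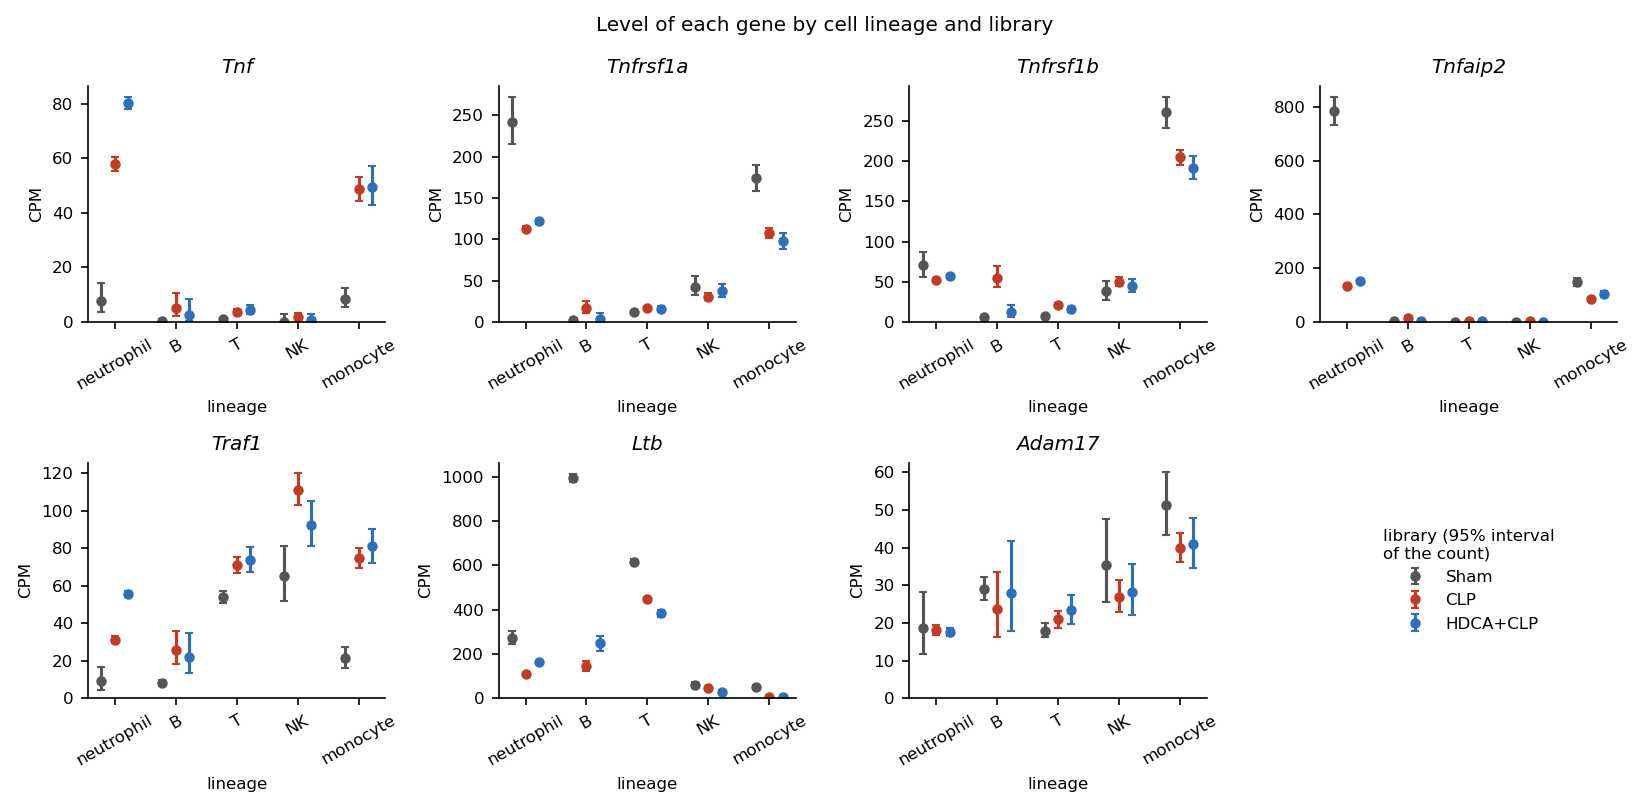
Level of each gene in CPM (vertical axis, linear, from 0) in the 5 gated lineages (horizontal axis), with 1 point per library and its exact Poisson 95% interval. Tnf was high only in neutrophils and monocytes of the CLP and HDCA+CLP libraries, Ltb was highest in Sham B cells at 995 CPM, and Adam17 stayed between 17.6 and 51.3 CPM throughout.

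Tnf transcripts were scarce in Sham blood and several-fold higher in the phagocytes of both CLP libraries. In neutrophils Tnf was at 7.61 CPM in Sham (interval 3.48 to 14.4, from 9 UMIs), 57.9 in CLP (55.5 to 60.3), with 80.2 in HDCA+CLP (78.1 to 82.4). The 3 intervals did not overlap, and the log2 ratio was 2.93 (2.0 to 4.06) for CLP against Sham and 0.47 (0.40 to 0.54) for HDCA+CLP against CLP. In monocytes it was at 8.26 CPM in Sham (5.29 to 12.3), 48.6 in CLP (44.5 to 53.1), with 49.6 in HDCA+CLP (42.7 to 57.2). In CPM the monocytes of CLP and HDCA+CLP thus did not differ beyond counting error (log2 ratio 0.03, -0.22 to 0.27), while both lay far above Sham. The Tnf intervals of Sham neutrophils and monocytes overlapped, whereas in both other libraries the neutrophil level lay above that of monocytes. T cells had 0.926, 3.79 and 4.34 CPM, B cells 0.492, 5.2 and 2.34 and NK cells 0, 1.69 and 0.776 in Sham, CLP and HDCA+CLP. All 7 Tnf UMIs of CLP B cells lay in cells that also met the monocyte gate. The NK value of Sham rests on 0 UMIs, whose floor of 3 counts is 2.41 CPM, and the NK value of HDCA+CLP was below the 0.953 CPM that free RNA could supply at most.

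The Tnf signal was spread over many cells rather than carried by a few. At least 1 Tnf UMI was found in 28.5% (27.2 to 29.8) of CLP neutrophils and 38.3% (37.3 to 39.4) of HDCA+CLP neutrophils, against 2.99% (1.21 to 6.07) in Sham, whose neutrophils had a median of 4229 UMIs against 8418 and 7880. With each cell thinned to 2000 UMIs the shares were 1.38%, 10.5% and 14.7% in Sham, CLP and HDCA+CLP, so the order was kept at equal depth. B cells, which served as background, had a Tnf UMI in 0.226%, 2.1% and 0.722% of cells at median depths of 4237, 3284 and 2710 UMIs. All 6 CLP B cells with a Tnf UMI also met the monocyte gate. In the 270 CLP B cells meeting a single gate there were 0 Tnf UMIs, so the 2.1% is not a level of B cells alone. In CLP, 810 neutrophils had 1 Tnf UMI, 407 had 2 to 4, 65 had 5 to 9 and 5 had 10 or more. The 5 cells with most Tnf held 2.83% of the CLP neutrophil UMIs and 1.1% of those of HDCA+CLP. In HDCA+CLP monocytes, by contrast, 1 cell carried 33 of the 188 Tnf UMIs and the top 5 cells held 42% of them. A Tnf UMI was found in 7.35% of Sham, 35.8% (32.3 to 39.5) of CLP and 27.9% (22.7 to 33.5) of HDCA+CLP monocytes. At 2000 UMIs per cell these shares were 1.67%, 8.11% and 6.33%.

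Neutrophils also held most of the Tnf transcripts of both CLP libraries. They accounted for 15% (7.1 to 26.6) of the 60 Tnf UMIs in Sham, 78.8% (77.3 to 80.3) of 2869 in CLP and 95.9% (95.4 to 96.4) of 5585 in HDCA+CLP. Monocytes held 40%, 17.6% and 3.37% in the same order. The same shift was found for Ltb: B and T cells together held nearly all Sham UMIs (47.8% and 49.9%), while neutrophils held 1.27% in Sham, 34.5% in CLP, with 79.4% in HDCA+CLP. For Traf1, the T cell share was 81.2%, 29.4% and 9.9%, and the neutrophil share was 0.803%, 30.5% and 77.1%. These shares combine the level per cell with the number of cells caught in each library.

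**Figure D2:**
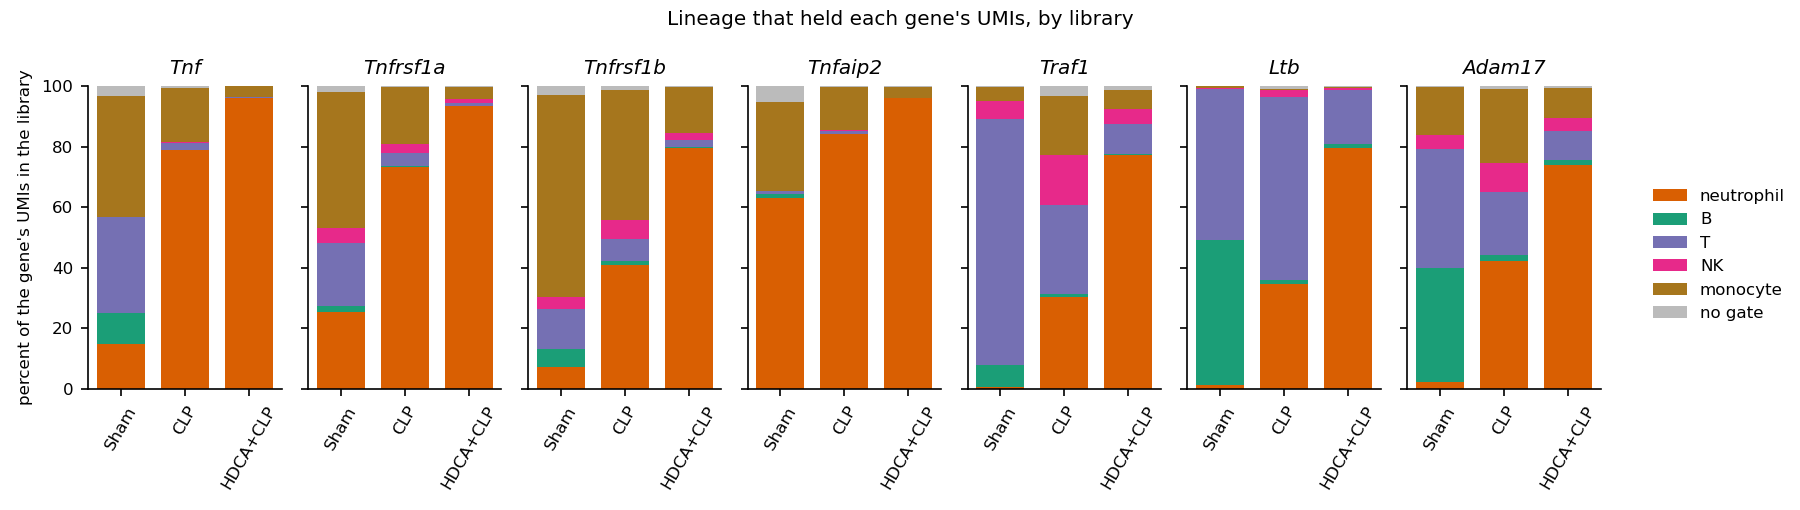
Share of each gene's UMIs (vertical axis, percent of the library's UMIs for that gene) held by each lineage, with 1 stacked bar per library. The neutrophil part of every bar widened from Sham to CLP to HDCA+CLP, for Tnf from 15% to 78.8% and 95.9%.

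The 2 receptors had different cellular patterns. Tnfrsf1a was a myeloid transcript, at 242 CPM (215 to 272) in Sham neutrophils, 113 (110 to 116) in CLP and 122 (119 to 124) in HDCA+CLP. Sham lay above both other libraries, with a log2 ratio of -1.10 (-1.27 to -0.92) for CLP against Sham. That value fell under 2-fold with median-of-ratios size factors (-0.72) and with totals that leave out the 20 most abundant genes (-0.76), and was at -1.0, just under it, without doublet removal or without a cell filter. Monocytes were likewise highest in Sham, at 174, 108 and 97.3 CPM, with CLP against Sham at -0.69 (-0.84 to -0.53). NK cells had 42.6, 30.4 and 37.2 CPM and T cells 11.5, 16.2 and 15.5, and in both lineages the intervals of CLP and HDCA+CLP overlapped. Sham B cells were lowest of all at 1.72 CPM.

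Tnfrsf1b was highest in monocytes, at 261 CPM (242 to 280) in Sham, 205 (196 to 214) in CLP and 192 (178 to 206) in HDCA+CLP. Sham lay above the other libraries, by a log2 ratio of -0.35 (-0.47 to -0.23) for CLP against Sham, or -0.13 with size factors. The intervals of CLP and HDCA+CLP overlapped. Neutrophils followed at 70.2, 51.6 and 57.2 CPM and NK cells at 37.8, 49.9 and 44.6. In Sham the order was monocyte, neutrophil, NK, T, B, and the last of these, at 7.36 and 5.42 CPM, had overlapping intervals. T cells had 7.36 CPM in Sham, 21.4 in CLP, with 15.7 in HDCA+CLP, a log2 ratio of 1.54 (1.26 to 1.83) for CLP against Sham. Of the 356 Tnfrsf1b UMIs of CLP T cells, 98 lay in 22 cells that also met the monocyte gate. With T cells meeting a single gate, CLP against Sham was at 1.02 (0.71 to 1.34). HDCA+CLP against CLP went from -0.45 (-0.79 to -0.13) to -0.07 (-0.45 to 0.30) under that setting. Among the lineages, Tnfrsf1b UMIs per positive cell were highest in monocytes, at 3.22, 3.66 and 3.19. Monocytes were also the deepest cells, with medians of 10822, 13876 and 12936 UMIs, and this count was not set to equal depth.

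Tnfaip2 was a neutrophil and monocyte transcript that was highest in Sham. In neutrophils it was at 784 CPM (734 to 836) in Sham, 135 (132 to 139) in CLP and 152 (149 to 155) in HDCA+CLP, with a UMI in 93.2%, 59.2% and 62.7% of cells. The CLP to Sham log2 ratio was -2.53 (-2.63 to -2.43), and -2.15 with size factors. Monocytes had 149, 86.3 and 104 CPM, again highest in Sham (-0.79, -0.96 to -0.62). In Sham, B, T and NK cells had at most 1.31 CPM.

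Traf1 was led by NK and T cells in Sham and was higher in the phagocytes of both CLP libraries. In Sham it was at 65.1 CPM in NK cells and 54.2 in T cells, whose intervals overlapped, then 21.3 in monocytes, 9.3 in neutrophils and 8.04 in B cells. In monocytes it reached 74.8 CPM in CLP and 81 in HDCA+CLP, with a log2 ratio of 1.81 (1.43 to 2.21) for CLP against Sham. In neutrophils it was at 31.3 CPM (29.6 to 33.1) in CLP and 55.6 (53.8 to 57.4) in HDCA+CLP, so that all 3 libraries were apart. The neutrophil log2 ratio was 1.75 (0.91 to 2.76) for CLP against Sham and 0.83 (0.73 to 0.92) for HDCA+CLP against CLP. The first of these fell under 2-fold without doublet removal (0.94) and without a cell filter (0.95). T cells differed less, at 71 and 73.9 CPM in CLP and HDCA+CLP (0.39, 0.27 to 0.51 for CLP against Sham), and NK cells had 111 and 92.3.

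Ltb was the lymphocyte gene of the set. Over all B cells, all monocytes and all neutrophils it was at least 2-fold lower in CLP than in Sham. Sham B cells had 995 CPM (977 to 1013), CLP B cells 145 (125 to 167) and HDCA+CLP B cells 248 (215 to 283). The 3 intervals were apart, and the log2 ratios were -2.78 (-2.99 to -2.58) for CLP against Sham and 0.77 (0.49 to 1.06) for HDCA+CLP against CLP. The second was 0.43 (0.13 to 0.72) in cells meeting a single gate, 0.39 with doubled gates and 0.41 as a mean over cells. Cells with an Fcer2a UMI were 59.5% of Sham, 3.5% of CLP and 3.25% of HDCA+CLP B cells. In B cells without it, CLP against Sham was at -2.64 (-2.86 to -2.43). T cells had 616 (606 to 627), 447 (437 to 457) and 383 (368 to 398) CPM, a difference of -0.46 (-0.51 to -0.42) between CLP and Sham. Monocytes went from 51.6 CPM in Sham to 4.04 and 5.8, and the last pair of values was under the 10.7 and 14.7 CPM that free RNA could supply at most. NK cells had 58.7, 44.5 and 29.9 CPM, and in Sham the 5 NK cells with most Ltb held 57.5% of its UMIs.

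Neutrophils also carried Ltb, at 271 CPM (243 to 303) in Sham, 109 (105 to 112) in CLP and 164 (161 to 167) in HDCA+CLP. The upper bounds for free RNA, from the B and T cell transcripts found in neutrophils, were 16.9, 5.01 and 3.76 CPM, far under these levels. CLP against Sham was at -1.32 (-1.49 to -1.15), or -0.94 with size factors and -0.98 without the 20 most abundant genes, both under 2-fold. An Ltb UMI was present in 41.3%, 19.7% and 27.8% of neutrophils at 2000 UMIs per cell.

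Adam17, which releases TNF and sheds both receptors, was the least variable gene. Monocytes had 51.3, 39.8 and 40.9 CPM, and neutrophils 18.6, 18.1 and 17.6, with overlapping intervals among the neutrophils. No Adam17 ratio reached 2-fold in any lineage or comparison. The largest, -0.39 in NK cells of CLP against Sham, had an interval of -0.88 to 0.12.

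**Figure D3:**
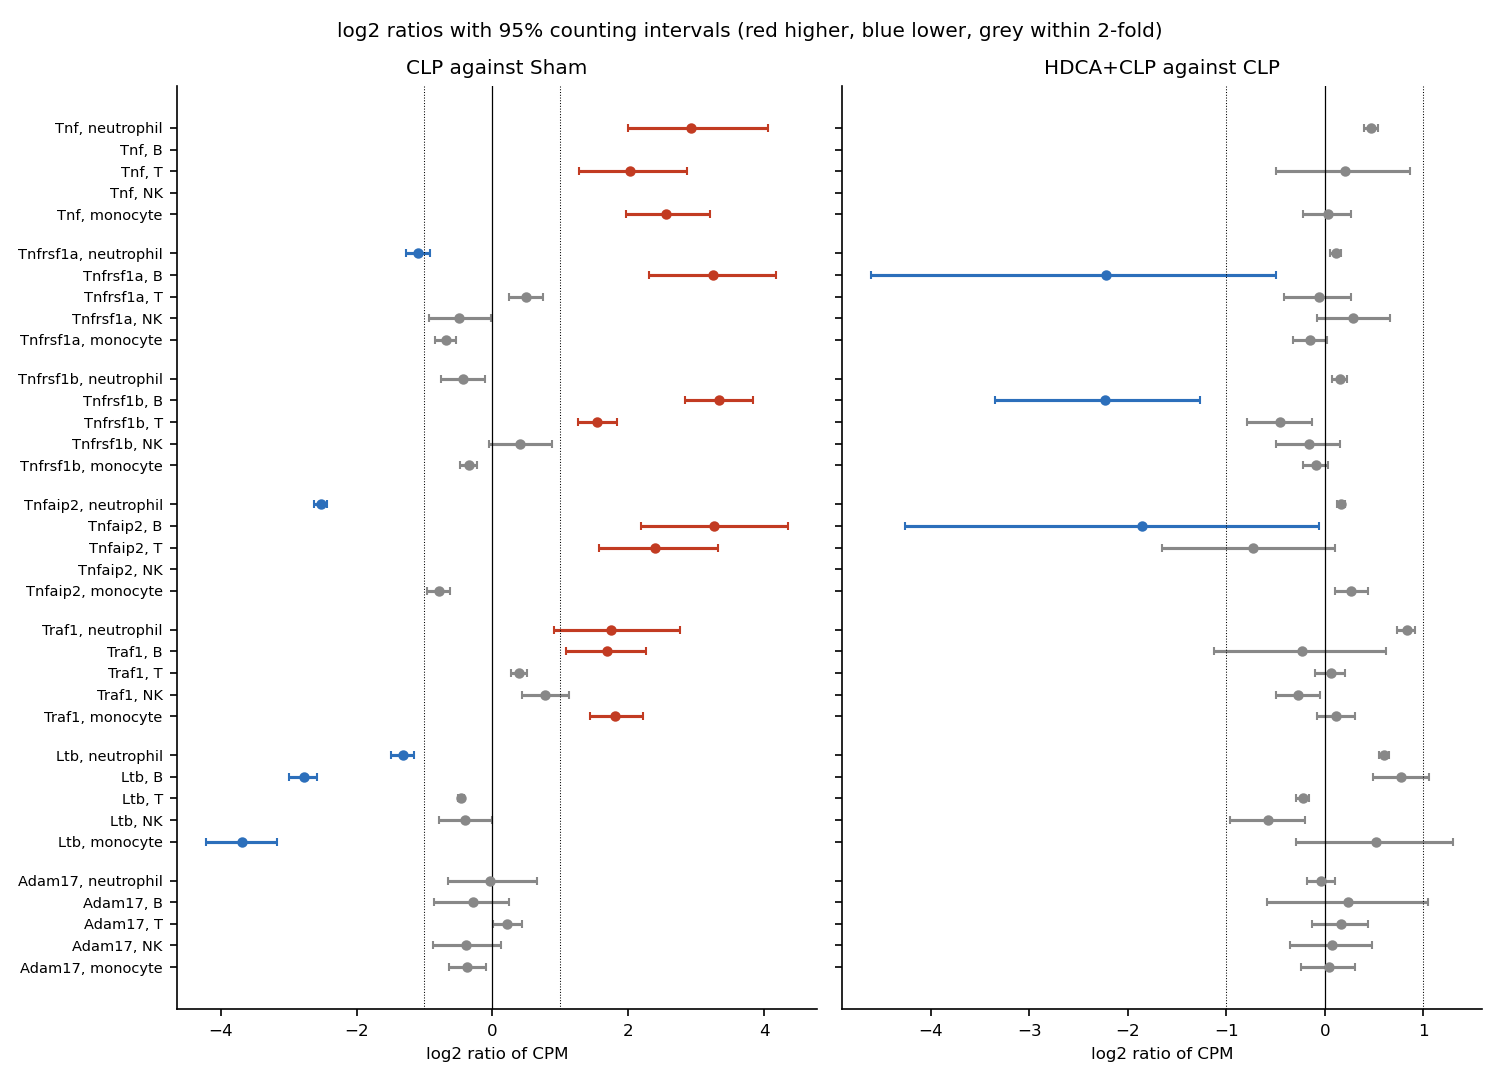
log2 ratios of CPM (horizontal axis) with exact 95% counting intervals for each gene and lineage (vertical axis), CLP against Sham on the left and HDCA+CLP against CLP on the right; dotted lines mark 2-fold and combinations under 20 UMIs are not drawn. On the left Tnf and Traf1 lie to the right in neutrophils and monocytes and Ltb to the left, and on the right only B cell values pass a dotted line.

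Neutrophils of the 3 libraries differed in maturity, measured by the secondary granule genes Camp, Ngp and Ltf, which are transcribed in immature cells and lost in mature ones. Granule-low cells (under 0.1% of UMIs from the 3 genes) were 84.6% of Sham neutrophils, 1.48% of CLP and 4.11% of HDCA+CLP neutrophils. Granule-high cells (at least 1%) were 8.12%, 89.5% and 81.2%. In cells these are 198, 67 and 339 granule-low neutrophils, but only 19 Sham cells were granule-high and 17 granule-intermediate. The pooled neutrophil values above therefore compare mostly mature Sham cells with mostly immature CLP cells, and the values within 1 granule part are given next.

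Within granule-low neutrophils Traf1 differed more between CLP and Sham than over all neutrophils, and Tnf was again higher in CLP. Tnfrsf1b was higher in CLP in this part, which it was not over all neutrophils. Tnf was at 8.12 CPM (3.26 to 16.7) in Sham, 127 (97.1 to 164) in CLP and 137 (119 to 156) in HDCA+CLP. Its log2 ratio for CLP against Sham was 3.97 (2.84 to 5.35), an interval that overlaps the 2.0 to 4.06 over all neutrophils. Traf1 was at 12.8, 250 and 458 CPM, with 4.29 (3.4 to 5.34) for CLP against Sham and 0.87 (0.59 to 1.17) for HDCA+CLP against CLP. Tnfrsf1b was at 86.9 CPM (68.4 to 109) in Sham, 248 (205 to 297) in CLP and 254 (230 to 280) in HDCA+CLP. Its ratio of CLP to Sham was 1.51 (1.08 to 1.95) in this part, against -0.44 (-0.76 to -0.11) over all neutrophils. The value over all neutrophils was -0.06 with size factors and -0.10 without the 20 most abundant genes. Tnfaip2 and Tnfrsf1a stayed lower in CLP than in Sham: Tnfaip2 at 1009 and 265 CPM (-1.93, -2.21 to -1.66) and Tnfrsf1a at 284 and 129 (-1.13, -1.56 to -0.73). In granule-high cells, where Sham had 19, Tnfaip2 was at 83.1 and 125 CPM in Sham and CLP (0.59, -0.08 to 1.34) and Tnfrsf1a at 120 and 108 (-0.15, -0.70 to 0.47), so neither was lower beyond counting error there.

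Ltb in granule-low neutrophils set CLP apart from both other libraries, at 298 CPM (263 to 337) in Sham, 121 (91.5 to 157) in CLP and 332 (304 to 361) in HDCA+CLP. HDCA+CLP against CLP was at 1.46 (1.06 to 1.88), and HDCA+CLP against Sham at 0.15 (-0.06 to 0.38). The granule-low CLP value comes from 67 cells. In granule-high cells, where Sham had 19, Ltb for CLP against Sham was at -0.43 (-0.95 to 0.14), not lower beyond counting error. In granule-intermediate cells, where Sham had 17, it was at -0.65 (-1.15 to -0.10), under 2-fold. Adam17 in granule-low cells was at 19.7, 31.8 and 31.7 CPM with overlapping intervals.

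Inside each CLP library most of these genes were higher in granule-poor than in granule-rich neutrophils. In CLP, Traf1 was at 20.9 CPM in granule-high, 165 in granule-intermediate and 250 in granule-low cells, and in HDCA+CLP at 27.1, 214 and 458. Tnfrsf1b was at 40.6, 201 and 248 CPM in CLP and 39.4, 170 and 254 in HDCA+CLP. The steps of Traf1 and Tnfrsf1b did not overlap in HDCA+CLP, while in CLP the intermediate and low intervals of Tnfrsf1b overlapped (182 to 221 and 205 to 297). Tnf was at 51.7, 151 and 127 CPM in CLP and 73.2, 129 and 137 in HDCA+CLP, so granule-intermediate and granule-low cells did not differ beyond counting error. Tnfaip2 was at 125, 293 and 265 CPM in CLP. Granule-high cells nevertheless held most Tnf, since they were 4044 of 4520 neutrophils in CLP and 6690 of 8239 in HDCA+CLP.

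**Figure D4:**
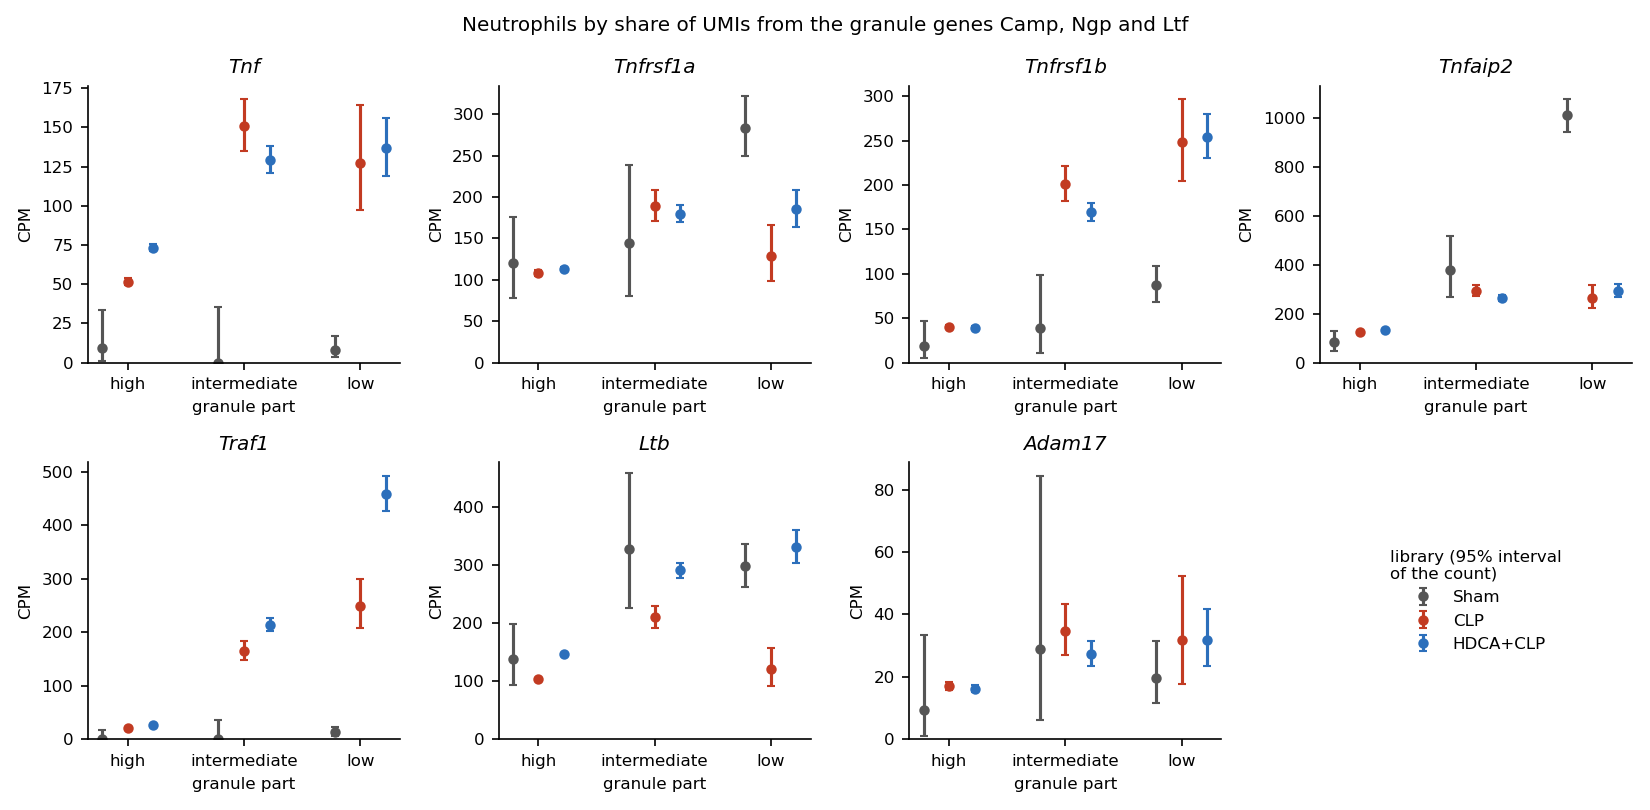
Level of each gene in CPM (vertical axis, linear, from 0) in granule-high, granule-intermediate and granule-low neutrophils (horizontal axis), with 1 point per library and its exact Poisson 95% interval. Traf1 and Tnfrsf1b climbed towards granule-low cells in CLP and HDCA+CLP, while Tnfaip2 was highest in the granule-low cells of Sham at 1009 CPM.

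Monocytes were divided by whether Ly6c2 and Ccr2, genes of classical monocytes, or Ace, Eno3, Treml4 and Nr4a1, genes of patrolling monocytes, had more UMIs. Patrolling-type cells were 41.2% of Sham monocytes (112 cells), 10.3% of CLP (71 cells) and 7.5% of HDCA+CLP monocytes (21 cells). Tnf was higher in CLP than in Sham in both kinds: in classical-type cells at 6.36, 49.4 and 50.6 CPM (2.96, 2.17 to 3.88 for CLP against Sham), and in patrolling-type cells at 13.2, 34.3 and 25.9 (1.38, 0.23 to 2.60). Traf1 was at 8.81, 63.2 and 75.3 CPM in classical-type and 51.6, 253 and 181 in patrolling-type cells. Tnfrsf1b was higher in patrolling-type cells in all 3 libraries, at 506, 343 and 310 CPM against 159, 196 and 189.

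The share of patrolling-type cells was lower where the pooled monocyte Tnfrsf1b and Ltb were lower, and its part in those values was not tested. Within classical-type monocytes Tnfrsf1b was slightly higher in CLP than in Sham (0.30, 0.13 to 0.47), opposite in sign to the pooled -0.35. That pooled value was -0.13 with size factors. Ltb was mainly a patrolling-type transcript in Sham, at 162 CPM (136 to 192) against 6.85 (3.75 to 11.5) in classical-type cells, and it was lower within patrolling-type cells of CLP too, at 36.1 (-2.17, -2.92 to -1.48). Tnfaip2 went opposite ways in the monocyte kinds, lower in classical-type (180 and 79.2 CPM, -1.18, -1.36 to -1.0) and higher in patrolling-type cells of CLP (75.7 and 168 CPM, 1.15, 0.67 to 1.64). The difference between the kinds was not tested.

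**Figure D5:**
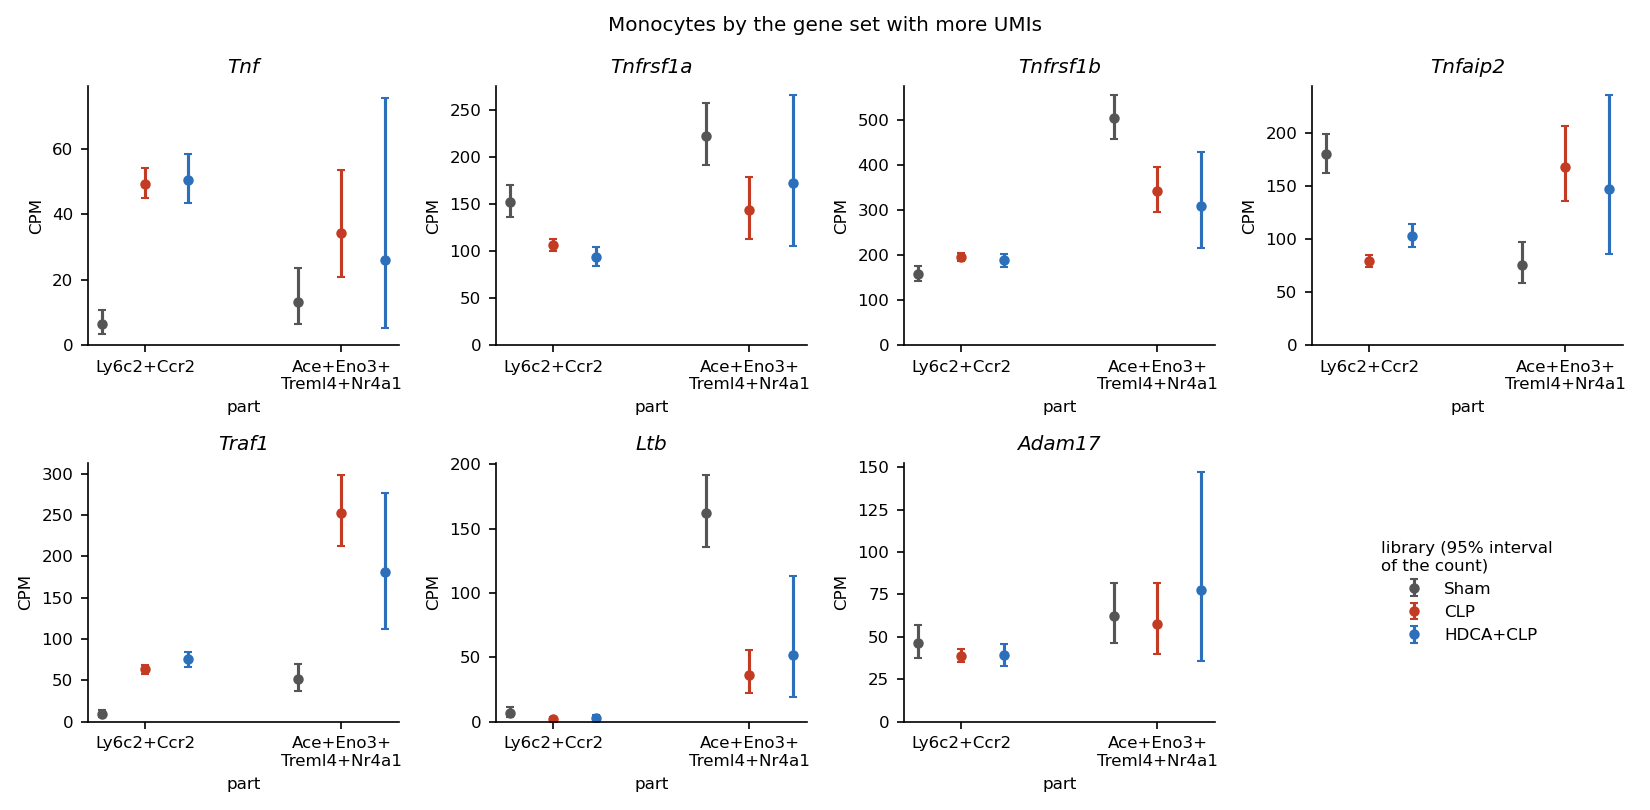
Level of each gene in CPM (vertical axis, linear, from 0) in monocytes with more Ly6c2 and Ccr2 UMIs and in monocytes with more Ace, Eno3, Treml4 and Nr4a1 UMIs (horizontal axis), with 1 point per library and its exact Poisson 95% interval. Tnfrsf1b, Traf1 and Ltb were higher in the second kind in each library; the 21 cells of this kind in HDCA+CLP give wide intervals.

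Among T cells, Tnfrsf1b and Traf1 were highest in the cells with a Foxp3 UMI, the factor of regulatory T cells, a division made after the data were seen. These 127 Sham, 57 CLP and 38 HDCA+CLP cells had Tnfrsf1b at 33.4 (22.3 to 47.9), 52 (28.4 to 87.2) and 57.9 (26.5 to 110) CPM, against 7.36, 21.4 and 15.7 over all T cells. Their Traf1 was at 129, 119 and 129 CPM, with intervals that overlap between the libraries. Ltb was equal in CD4 and CD8 T cells of Sham, at 624 (607 to 642) and 616 (598 to 635) CPM, but in CLP it was at 548 (521 to 577) in CD4 and 278 (265 to 291) in CD8 cells. In HDCA+CLP the values were 390 and 315. In NK cells Ltb was higher with a Cd27 UMI, a mark of less mature NK cells, than without, at 118 and 39.4 CPM in Sham and 61.1 and 40.3 in CLP. In HDCA+CLP the values were 48 (30.5 to 72.1) and 25.7 (19.3 to 33.6), with overlapping intervals. The Sham value with Cd27 rests on 36 UMIs in 11 cells, and a single Sham NK cell held 20 of the 73 Ltb UMIs.

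Some B and T cell values rested on few cells that also met the monocyte gate. In CLP B cells Tnfrsf1b was at 54.9 CPM (43.1 to 69), against 5.42 in Sham and 11.7 in HDCA+CLP. Of its 74 UMIs, 61 came from 10 cells that met the monocyte gate as well, and 11 of 286 CLP B cells did so. For Tnfrsf1a, 21 of 22 UMIs came from 9 such cells, and for Tnfaip2 15 of 17 from 5. The 10 monocyte markers summed to 1964 CPM in CLP B cells, with 1 of them at 0, and to 612.5 in Sham and 547.6 in HDCA+CLP B cells, and their part in the result was not tested. With cells meeting a single gate, the log2 ratio of CLP to Sham in B cells went from 3.34 to 1.38 (0.34 to 2.30) for Tnfrsf1b, with 54 Sham and 12 CLP UMIs left. For Tnfrsf1a 6 Sham UMIs and 1 CLP UMI were left, and for Tnfaip2 2 in each library, too few for a ratio. The 3 B cell values that were lower in HDCA+CLP than in CLP (Tnfrsf1a, Tnfrsf1b and Tnfaip2) were at -2.22, -2.23 and -1.85. With a single gate Tnfrsf1b was at -0.08 (-1.51 to 1.29), from 12 UMIs in CLP and 9 in HDCA+CLP, while Tnfrsf1a had 1 and 3 UMIs and Tnfaip2 had 2 and 1, again too few for a ratio. In CLP T cells, 26 of 63 Tnf UMIs came from 13 cells that met the monocyte gate too. From 9 cells that met the NK gate came 13 of the UMIs, and a cell can meet both gates. With cells meeting a single gate, which leaves out both kinds, the CLP to Sham ratio of Tnf in T cells went from 2.03 to 1.18 (0.31 to 2.08). Ltb in B cells was at -2.43 (-2.65 to -2.22) under the same setting.

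Between HDCA+CLP and CLP, no member differed 2-fold over all neutrophils or all monocytes, and Ltb did so in granule-low neutrophils (1.46). Over all neutrophils Traf1 differed by 0.83, Ltb by 0.60 (0.55 to 0.65), Tnf by 0.47, Tnfaip2 by 0.16 (0.12 to 0.21), Tnfrsf1b by 0.15 (0.07 to 0.23) and Tnfrsf1a by 0.11 (0.05 to 0.16), all higher in HDCA+CLP and all under 2-fold. Adam17 was at -0.04 (-0.18 to 0.10). With the neutrophils of HDCA+CLP weighted to the granule makeup of CLP, an alternative added after the data were seen, Tnf was at 0.41, Ltb at 0.52 and Traf1 at 0.43. Tnfrsf1b was at -0.08 under that weighting. The Tnf difference lay in granule-high cells (51.7 and 73.2 CPM, 0.50, 0.42 to 0.58), and in granule-intermediate cells Tnf was lower in HDCA+CLP (151 and 129 CPM, -0.22, -0.41 to -0.03). In monocytes, Tnfaip2 was the member whose interval lay apart from 0, at 0.27 (0.10 to 0.44). In classical-type monocytes Tnfaip2 was at 0.37 (0.19 to 0.55) and Traf1 at 0.25 (0.04 to 0.46).

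Neutrophils with a Tnf UMI carried Traf1 and Tnfrsf1b more often than those without. At 2000 UMIs per cell, a Traf1 UMI was found in 11.5% (8.81 to 14.7) of 477 CLP neutrophils with Tnf and 5.05% (4.38 to 5.77) of 3964 without. In HDCA+CLP the shares were 17.4% (15.3 to 19.6) of 1198 and 8.78% (8.12 to 9.47) of 6916. Tnfrsf1b was found in 15.7% and 9.91% in CLP, and in 16.7% and 11.1% in HDCA+CLP. Tnfaip2 was at 33.1% and 25.4% in HDCA+CLP, and Adam17 at 3.59% and 3.72% with overlapping intervals. These are cells of 1 library each, and the granule parts, which differ in Tnf, Traf1 and Tnfrsf1b together, were not held apart here.

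The wider pathway was read from 6 lists, chosen with earlier results of these data known. The lists include the 7 genes themselves, Tnfaip2 among the NF-kappaB response genes. Of 30 such genes, 16 of 30 measured were at least 2-fold higher and 0 lower in monocytes (10.5% and 17.0% of all genes), 17 of 27 and 0 in T cells (10.7% and 6.57%), 12 of 26 and 0 in B cells (9.47% and 13.3%) and 12 of 26 and 0 in NK cells (6.64% and 13.1%). Their median log2 ratios were 1.53, 1.71, 0.90 and 0.78, beside -0.20, -0.02, -0.09 and -0.27 over all genes. Monocyte markers moved with the list in B cells (612.5 CPM in Sham, 1964 in CLP) and T cells (299.9 and 669 CPM). In cells meeting a single gate, a setting added after the data were seen, 6 of 21 list genes were higher and 0 lower in B cells (5.45% and 13.8% of all genes), with a median of 0.40. In T cells 14 of 27 were higher and 0 lower under that setting (8.44% and 7.02% of all genes), with a median of 1.41. In neutrophils the list was split, with 7 of 28 higher and 5 lower (11.8% and 24.6% of all genes) and a median of 0.13. There the chemokine gene Ccl3 had 24.5 CPM in Sham against 105 in CLP (2.09, 1.57 to 2.67), while Ptgs2, the inducible cyclooxygenase, was at 77.8 and 0.768 (-6.66, -7.31 to -6.05). These values set mostly granule-low Sham cells beside mostly granule-high CLP cells. Within granule-low neutrophils Ccl3 was at 33.6 and 797 CPM (4.57, 4.02 to 5.17) and Ptgs2 at 105 and 21.2 (-2.31, -3.42 to -1.37, from 91 and 10 UMIs). There 16 of 26 list genes were higher and 4 lower, against 27.5% and 21.9% of all genes. In monocytes the chemokine gene Ccl4 was at 12 and 360 CPM (4.90, 4.42 to 5.43). In NK cells the stress response gene Gadd45b was at 12.9 and 66.5 (2.37, 1.65 to 3.19).

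The shares of all genes just given for each lineage (higher, then lower) are also the background for the other lists between CLP and Sham. Of 18 ligands of the TNF superfamily, T cells had 12 measured, 5 higher and 2 lower in CLP (10.7% and 6.57%). Among them was Cd40lg, the CD40 ligand of helper T cells, at 20.1 and 3.85 CPM (-2.38, -2.79 to -2.0). Neutrophils had 1 ligand higher and 3 lower of 4 measured (11.8% and 24.6%), monocytes 2 higher and 4 lower of 6 (10.5% and 17.0%), B cells 1 higher and 2 lower of 4 (9.47% and 13.3%), and NK cells 0 of 6 in either direction (6.64% and 13.1%). Of 23 receptors, NK cells had 9 measured, 2 higher and 1 lower, with the death receptor gene Fas at 1.61 and 27.3 CPM (4.09, 2.21 to 7.14, from 2 Sham UMIs). B cells had 14 measured receptors, 5 higher and 6 lower, or 2 and 4 of 12 in cells meeting a single gate. Tnfrsf13b, the TACI receptor of B cells, was at 189 and 60.1 CPM (-1.65, -1.99 to -1.33). Cd27, a costimulatory receptor, was at 165 and 66.1 CPM in T cells (-1.32, -1.42 to -1.22). The lymphotoxin partner gene Lta had 9.68 CPM in Sham B cells and 0 UMIs in CLP B cells, whose floor of 3 counts is 2.23 CPM.

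Of 27 genes of the receptor complex and the death or survival switch, 2 were higher and 0 lower in T cells, 1 was higher and 0 lower in NK cells, and 5 were higher and 4 lower in neutrophils. The neutrophil counts were near or under the background of 11.8% and 24.6%, and within granule-low neutrophils 5 of 16 were higher and 2 lower. In monocytes 2 were higher and 5 lower, with Map3k14, the kinase NIK of the alternative NF-kappaB pathway, at 48.9 and 10.2 CPM (-2.26, -2.64 to -1.89). Of 13 genes that control Tnf mRNA stability and translation, 5 were lower and 0 higher in neutrophils, 3 lower and 1 higher in monocytes, and 0 lower and 3 higher in T cells. Within granule-low neutrophils 5 of the 13 were higher and 4 lower (27.5% and 21.9% of all genes). Zfp36l2, an RNA decay factor, was at 776 and 208 CPM in monocytes (-1.90, -1.99 to -1.81), and its relative Zfp36l1 at 138 and 44.7 in NK cells (-1.63, -1.91 to -1.34). Of 8 shedding genes, 3 of 6 measured were higher and 0 lower in monocytes, and Adam10, another sheddase, was at 70 and 24.3 CPM in NK cells (-1.53, -1.92 to -1.13). Between HDCA+CLP and CLP, the NF-kappaB list had 2 genes higher and 1 lower of 30 in neutrophils (1.92% and 2.07% of all genes). The cytokine gene Il1b was the clearest of them, at 154 and 317 CPM (1.04, 1.00 to 1.08), and it was under 2-fold within each granule part (0.72, 0.28 and 0.69 in granule-high, intermediate and low cells). B cells had 1 of 27 list genes higher and 7 lower (4.30% and 7.04% of all genes), and with a single gate 3 of 20 in each direction (3.57% and 2.04%). NK cells had 0 of 26 higher and 3 lower (1.34% and 1.91%), and monocytes 0 of 30 higher and 1 lower (2.06% and 2.43%). T cells had 0 of 27 higher and 6 lower (1.93% and 2.35%), or 1 higher and 4 lower with a single gate (2.21% and 1.21%). An example of the lower ones was the survival gene Bcl2a1b at 123 and 40.4 CPM (-1.61, -1.80 to -1.42), whose near-identical paralogs make its count uncertain. Ccl2, a monocyte attractant, was at 664 and 297 CPM in monocytes (-1.16, -1.25 to -1.07).

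Among 10062 genes, Gpr84, a receptor for medium-chain fatty acids, had the pattern most like Tnf over the 15 lineage and library sums (Pearson r = 0.975 of log2(CPM + 10)). Gpr84 was at 5.92, 36.7 and 49.1 CPM in neutrophils and 1.72, 16 and 28.5 in monocytes of Sham, CLP and HDCA+CLP. Oas1g (0.972), Adamtsl4 (0.965), Fam20c (0.961) and Lbp (0.960) followed. Prkd2, a protein kinase gene, was most like Ltb (0.963), at 78, 23.8 and 46.7 CPM in B cells and 68.6, 31.3 and 41.8 in T cells, and Cmah (0.919), Tcp11l2 (0.908), Rhobtb2 (0.904) and Letm2 (0.903) came next. With Spearman's rho in place of Pearson's r, 3 of these 5 genes for Tnf and 2 of the 5 for Ltb were among the 5 most alike, and with a pseudocount of 1 CPM 4 for each. The 15 sums share 3 libraries and are not independent, so these values are a description only.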

How the data were processed

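Transcripts were counted as UMIs per gene and cell in 3 droplet libraries. The deposited matrices hold raw counts made by the authors with Cell Ranger 5.0.1, and Seurat 4.0.6, R 4.0.3 and the mm39 build are named per the submitters' processing notes. Promoters came from RefSeq on another build, and no coordinate was moved between builds. From the counts, cells under 500 UMIs or 200 genes, or with over 10% mitochondrial UMIs, were left out. Doublets were removed by comparison with 2 simulated doublets per cell (2000 variable genes, 30 principal components, 50 neighbours) at a rate of 0.8% per 1000 barcodes, which removed 395 Sham, 987 CLP and 1174 HDCA+CLP cells. Library totals were 42427093, 87031721 and 95178381 UMIs.

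UMIs were summed per library and lineage. Intervals are exact Poisson for CPM, Clopper-Pearson for shares and exact conditional binomial for ratios, at 95%, and cover counting error only. A count of 0 was given a floor of 3 counts. Cells were thinned to 2000 UMIs for shares at equal depth. The most that free RNA could supply was taken from S100a8 and S100a9 in B, T and NK cells, and from Igkc, Ighm, Ighd, Trbc2 and Ms4a4b in neutrophils and monocytes, a measure added after the data were seen. Granule and monocyte parts were cut from UMIs of the genes named with them. Named list genes were the up to 2 highest and 2 lowest by the interval bound nearest to 0, with at least 20% of the highest lineage level, and likeness was searched among genes with at least 200 UMIs. Python 3.11.15, NumPy 2.4.6, SciPy 1.17.1, scikit-learn 1.9.0, pandas 2.3.3 and matplotlib 3.10.9 were used, and the scripts were tested on simulated data. Alternatives covered doublets, cell filters, gates, scaling, the count minimum and the fold. The 7 genes and the lists were chosen with earlier results of these data known.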

Additional observations from a re-analysis of the deposited data

Results flagged for a closer look

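Tnfrsf1a and Tnfaip2 differed in opposite directions between lineages. The log2 ratio of CLP to Sham for Tnfrsf1a was -1.10 in neutrophils and 3.24 in B cells. For Tnfaip2 it was -2.53 in neutrophils, 3.26 in B cells and 2.40 in T cells. HDCA+CLP against Sham, Tnfaip2 was at -2.37 in neutrophils and 1.67 in T cells. That T cell value rests on 15 UMIs in HDCA+CLP, or 2.32 CPM (1.3 to 3.83), where free RNA could supply up to 1.96 CPM. In CLP T cells Tnfaip2 was at 3.85 CPM (2.96 to 4.92), with up to 1.34 CPM from free RNA. With 1 library per group, the differences between lineages were not tested. In CLP, 21 of 22 Tnfrsf1a and 15 of 17 Tnfaip2 UMIs of B cells and 39 of 64 Tnfaip2 UMIs of T cells lay in cells that also met the monocyte gate.

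Traf1 was also found in cells outside every gate, which no comparison used. It was at 144 CPM (121 to 171) in 327 CLP cells and 159 CPM (122 to 203) in 176 HDCA+CLP cells, above the 29.7 CPM (9.65 to 69.3) of 76 Sham cells. The median depth of these cells was 2250, 2034 and 1346 UMIs in the same order. NK markers summed to 2822.5 CPM in the Sham cells, 7043.2 in CLP, with 9098.3 in HDCA+CLP, and erythroid markers to 65298.4, 4543.8 and 14.9 CPM. In the same order T cell markers summed to 546.7, 824.9 and 1293.0 CPM and B cell markers to 142.6, 371.0 and 345.0. Neutrophil markers summed to 3642.5, 3001.6 and 7301.5 CPM and monocyte markers to 2911.7, 624.8 and 565.9. The part of these cell types in the Traf1 values was not tested.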

How the results depend on the processing

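No paired analysis was possible because each group is 1 library with no replicate number. For CLP against Sham, the 11 higher combinations of gene and lineage became 7 with a minimum of 100 UMIs, and the 5 lower became 3 with size factors, with totals that leave out the 20 most abundant genes, and at 3-fold. For HDCA+CLP against CLP, the count of 0 higher became 1 with a 5% mitochondrial limit, with cells meeting a single gate and with granule-low neutrophils alone, a setting chosen after seeing the data. The 3 lower became 5 without doublet removal and without a cell filter, 1 with doubled gates, and 0 with a single gate or 100 UMIs. For HDCA+CLP against Sham, the 10 higher became 6 without doublet removal, without a cell filter, with 100 UMIs and at 3-fold, and the 3 lower became 5 with a single gate and with doubled gates. Tnfrsf1a in B cells changed sign: HDCA+CLP against CLP (-2.22, from 22 and 3 UMIs) it was at 1.92 with a single gate and 0.88 with doubled gates, from 4 and 5 UMIs over both libraries, and HDCA+CLP against Sham (1.02) at -0.81 without doublet removal and -0.80 without a cell filter. No other called value changed sign in these settings, and the cause was not tested.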
